A study of Mus musculus with 12 samples.

Results

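Primary mouse hepatocytes in which Hnf4a was already targeted by a small interfering RNA (siRNA) were compared with and without an additional siRNA against Cebpa. By their labels, 6 libraries entered the comparison, 3 that received both siRNAs (the double knockdown) and 3 that received the Hnf4a siRNA (siHnf4a), out of 12 in the study, and they were matched by the number of the mouse that gave the cells. Of 55385 genes in the files, 15090 passed a filter on low counts and were tested. All groups were hepatocytes freshly isolated from 3 mice and plated on collagen in Williams' E medium with 10% serum, 2 mM glutamine, 100 nM dexamethasone and 5% of an insulin, transferrin and selenium supplement, and RNA was taken 48 h after siRNA. The remaining 6 libraries received a control siRNA (siCon) or the Cebpa siRNA on its own (siCebpa), 3 each. Strain, age and sex of the mice, siRNA doses, and whether siHnf4a cells were given control siRNA to match the total amount in the double knockdown are not given in the labels.

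HNF4α, the product of Hnf4a, is a nuclear receptor and C/EBPα, the product of Cebpa, a basic leucine zipper protein. Both bind promoters and enhancers of genes that hepatocytes use for plasma protein secretion, nitrogen disposal, lipid transport and bile acid handling, often at the same regulatory regions. C/EBPα belongs to a family whose members share one recognition sequence and can form dimers with each other, and it is known in liver for restraining proliferation and for maintaining the enzymes of fed and fasted metabolism.

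The 6 compared libraries held 22453445 to 24806320 estimated counts each, and their scaling factors ran from 0.993 to 1.038. Mitochondrially encoded transcripts took 2.34% to 4.04% of the counts. The 8 hepatocyte markers summed to 17366, 15415 and 11061 counts-per-million (CPM, counts scaled to library size) in siHnf4a of mouse 1, 2 and 3, and to 13132, 8588 and 9730.5 CPM in the double knockdown. All 8 were detected. The 13 Kupffer cell and macrophage markers summed to 428, 127 and 97.0 CPM in siHnf4a. In the double knockdown they summed to 368, 96.1 and 105 CPM. Most of each sum was Cd68, at 415, 121 and 85.8 CPM in siHnf4a and 347, 89.6 and 101 CPM in the double knockdown. The higher sum of mouse 1 in both groups therefore describes this gene and not the marker set. The 8 cholangiocyte markers ranged from 88.3 to 216 CPM over the 6 libraries, with Cftr at 0, and the 10 markers of T, B and NK cells, 8 of neutrophils and 6 of red cells each summed to at most 1.15 CPM. In bulk RNA, fewer cells of a type and less RNA per cell cannot be told apart.

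Cebpa itself fell on adding its siRNA and was the only gene past the threshold. Cebpa (ENSMUSG00000034957.10, GRCm38 chromosome 7, 35119293 to 35121928, plus strand) was at 206, 204 and 234 CPM in siHnf4a of mouse 1, 2 and 3, and at 109, 89.0 and 84.5 CPM in the double knockdown. All 3 double knockdown libraries lay below all 3 siHnf4a libraries. The mean went from 214 ± 17.0 to 94.2 ± 13.1 CPM (SD, n = 3), a log2 fold change of -1.19 ± 0.12 (SE; 95% interval -1.45 to -0.93; quasi-likelihood F test in edgeR, Benjamini-Hochberg adjusted p = 0.0129), which left 43.7% of the siHnf4a level. Given without Hnf4a siRNA, the same target went from 179, 211 and 189 CPM in siCon to 33.7, 30.3 and 26.1 CPM in siCebpa, a log2 fold change of -2.69. Both falls differed by 1.49 log2 units (interaction contrast in edgeR, adjusted p = 0.00286), so the Cebpa transcript was reduced less in the presence of Hnf4a siRNA. Leaving out mouse 2 or mouse 3 ended the Cebpa call (adjusted p = 0.831 and 0.173 in edgeR), as did leaving out any library of these mice in the compared groups (adjusted p from 0.0509 to 0.299), while its log2 fold change ran from -1.24 to -1.06 over these.

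Hnf4a (ENSMUSG00000017950.16, chromosome 2, 163506808 to 163572910, plus strand), whose siRNA both groups received, was not at the same level in them. It was at 56.7, 59.2 and 46.4 CPM in siHnf4a and at 40.1, 33.5 and 34.1 CPM in the double knockdown. Every double knockdown library lay below every siHnf4a library. The log2 fold change of -0.60 ± 0.26 did not pass in edgeR with all 12 libraries (adjusted p = 0.624). It passed in edgeR with the 6 compared libraries and the mouse term (adjusted p = 0.0323) and with no filter on low counts (adjusted p = 0.0205). No other fit called Hnf4a, DESeq2 and limma on log2 TPM included (adjusted p = 0.759 in limma). The part of this lower Hnf4a in the differences below was not tested.

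Alb, the gene of serum albumin on which the study's title centres (ENSMUSG00000029368.10, chromosome 5, 90460897 to 90476602, plus strand), was at 10802, 9500.3 and 5202 CPM in siHnf4a and 7602, 4569 and 4189 CPM in the double knockdown. Each mouse was lower with both siRNAs, but the groups overlapped, with mouse 3 lowest in both. The log2 fold change was -0.64 ± 0.16 (95% interval -1.0 to -0.28), with an adjusted p of 0.308 in edgeR. Without a filter on low counts the adjusted p in edgeR was 5.72e-05. No other fit called Alb. The adjusted p was 0.816 in DESeq2 and 0.441 in limma on log2 TPM. In edgeR on the 6 compared libraries with mouse as a term it was 0.0887. Cebpa siRNA without Hnf4a siRNA gave a log2 fold change of Alb of 0.10 ± 0.16, and the difference between these responses, -0.73 ± 0.23, had an adjusted p of 0.106 in edgeR.

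**Figure D1:**
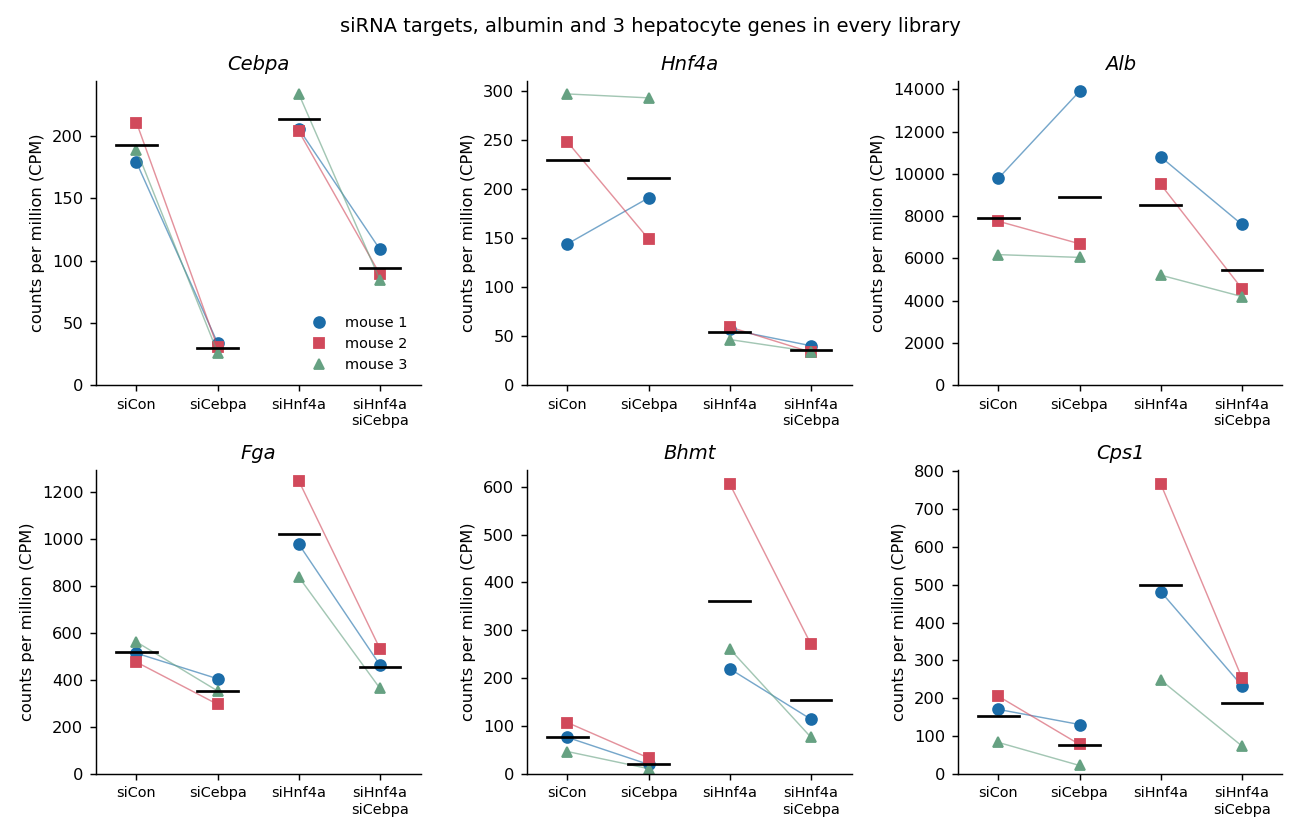
Counts-per-million (CPM; vertical axes, linear from 0) of Cebpa, Hnf4a, Alb and the hepatocyte genes Fga, Bhmt and Cps1 in all 12 libraries; symbols and thin lines follow the 3 mice and black bars are group means (n = 3). Cebpa goes from a mean of 214 CPM in siHnf4a to 94.2 CPM in the double knockdown. In every panel each mouse is lower in the double knockdown than in its own siHnf4a library. For Fga and Bhmt this was a condition of their choice.

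Across all genes, the number called differed between fits. With all 12 libraries in one edgeR fit and mouse as a term, 0 of 15090 genes were higher (0%) and 1, Cebpa, was lower (0.00663%). At an unadjusted p under 0.05, 427 genes had a positive (2.83%) and 721 a negative (4.78%) difference. DESeq2 called 22 genes higher (0.0847% of 25970) and 74 lower (0.285%), and edgeR on the 6 compared libraries with mouse as a term called 15 higher (0.105% of 14317) and 158 lower (1.10%). Without a filter on low counts edgeR called 43 higher (0.132% of 32685) and 307 lower (0.939%). In these 3 fits the lower genes outnumbered the higher ones. A fit on log2 TPM and a fit of the 6 libraries without mouse called 0 genes in either direction, with 355 and 147 genes at a positive and 611 and 274 at a negative difference at an unadjusted p under 0.05.

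A set of 59 genes was called by DESeq2, by the 6-library fit with mouse and by the fit without a filter, 54 of them lower and 5 higher. These are the 3 fits with the most calls and they share the compared libraries, so the overlap is no independent agreement. The 5 higher ones were Scamp5, Fam129a, Gm20431, Gm48799 and a gene with no symbol, ENSMUSG00000115074.1, the last 2 of them at 1.60 and 0.440 CPM on average. Genes with at least 10 CPM on average numbered 8986. Of these, 42 had a log2 fold change of -1 or below and 4 of 1 or above. The median over all tested genes was 0.006, a value that the scaling to library composition sets near 0.

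Mice differed in how far their own differences matched. Over the 8986 genes of at least 10 CPM, the log2 difference between the libraries of 1 mouse had a Pearson r of 0.68 between mouse 1 and mouse 2, 0.22 between mouse 1 and mouse 3 and 0.41 between mouse 2 and mouse 3 (Spearman rho 0.59, 0.14 and 0.13). These are descriptions over genes, which are not independent, and each mouse's difference rests on 1 pair of libraries. The response to Cebpa siRNA without Hnf4a siRNA gave r of 0.53, 0.56 and 0.77 for the same pairs of mice. Its SD over genes was 0.32, 0.37 and 0.44 in mouse 1, 2 and 3, against 0.23, 0.25 and 0.23 log2 units on top of Hnf4a siRNA. In all 3 mice 2704 genes were lower (17.9%) and 2735 higher (18.1%) on adding Cebpa siRNA. Groups did not overlap for 568 lower genes (3.76%) and 560 higher ones (3.71%). The gene farthest to the right in the plot of mouse against mouse is Rpl10a-ps1, a ribosomal protein pseudogene, whose difference was 8.32, 3.43 and -3.29 in the 3 mice. Such a pseudogene shares reads with its parent gene, and its value is uncertain.

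**Figure D2:**
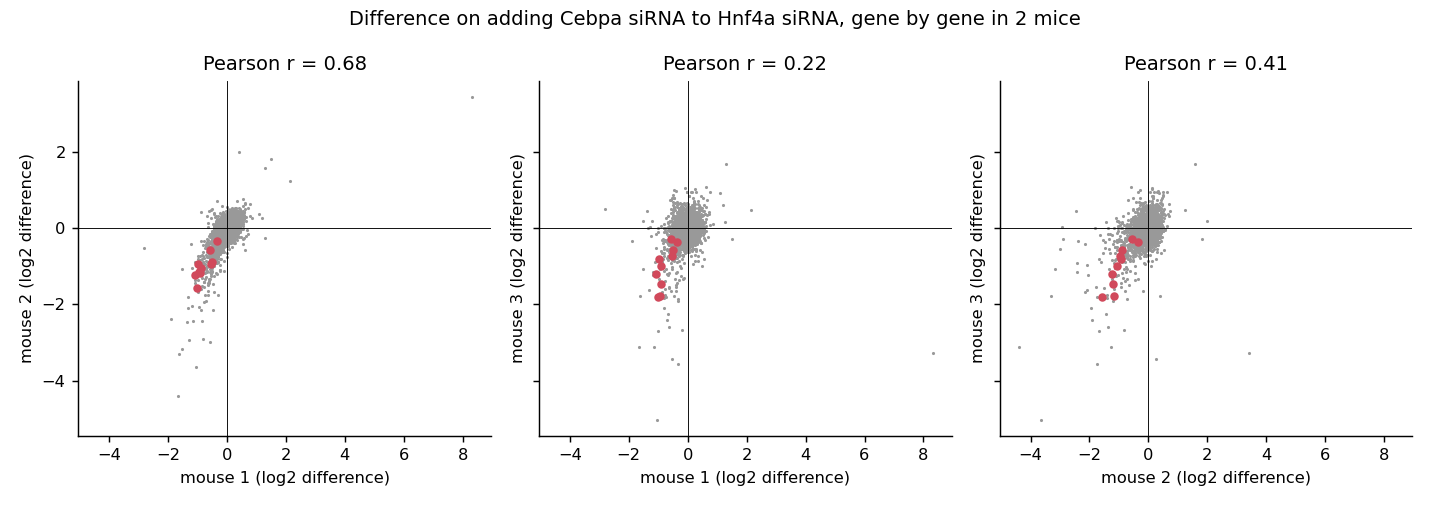
Log2 difference between the double knockdown and siHnf4a library of one mouse (horizontal) against that of another (vertical), 1 point per tested gene of at least 10 CPM on average; red points are Cebpa and 9 of the lower genes with the smallest p. Pearson r over the plotted genes is 0.68, 0.22 and 0.41. The red points lie in the lower left quadrant of every panel. For the 9 genes other than Cebpa, a lower value in every mouse was a condition of their choice, so this position is no finding.

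The 9 genes described next, among those below Cebpa in order of p on the lower side, were mostly hepatocyte secretory and metabolic genes, given here as values since none passed adjustment in edgeR with 12 libraries (adjusted p from 0.118 to 0.120). They were also required to be lower in all 3 mice, so that trait is no finding for them. All 3 chains of fibrinogen, the plasma protein that is cleaved to form clots, were among them. The genes of these chains lie together on chromosome 3. RefSeq promoter windows of the 3 genes and of Alb are shown because these genes are compared throughout. Each line gives the 250 bases before the annotated start on build GRCm38.p6, 5′ to 3′ on the gene's strand. Capitals mark matches to TTGCNNAA or, on the other strand, TTNNGCAA, a relaxed form of the sequence bound by C/EBP proteins.
Fga, chr3:83025903-83026152, plus strand: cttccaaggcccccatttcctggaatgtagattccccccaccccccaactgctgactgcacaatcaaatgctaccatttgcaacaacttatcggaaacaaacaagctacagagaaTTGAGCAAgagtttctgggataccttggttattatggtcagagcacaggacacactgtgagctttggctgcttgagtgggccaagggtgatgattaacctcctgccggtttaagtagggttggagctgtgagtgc
Fgb, chr3:83049864-83050113, minus strand: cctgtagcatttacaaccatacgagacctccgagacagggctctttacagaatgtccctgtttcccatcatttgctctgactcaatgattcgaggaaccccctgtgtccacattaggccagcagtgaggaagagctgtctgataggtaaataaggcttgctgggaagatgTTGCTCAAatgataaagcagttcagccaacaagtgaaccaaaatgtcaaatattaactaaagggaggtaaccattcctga
Fgg, chr3:83007474-83007723, plus strand: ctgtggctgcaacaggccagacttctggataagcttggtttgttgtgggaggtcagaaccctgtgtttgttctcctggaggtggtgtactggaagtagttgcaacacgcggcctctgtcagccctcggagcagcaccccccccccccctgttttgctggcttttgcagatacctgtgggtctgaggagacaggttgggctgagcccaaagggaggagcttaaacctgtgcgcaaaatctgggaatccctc
Alb, chr5:90460620-90460869, plus strand: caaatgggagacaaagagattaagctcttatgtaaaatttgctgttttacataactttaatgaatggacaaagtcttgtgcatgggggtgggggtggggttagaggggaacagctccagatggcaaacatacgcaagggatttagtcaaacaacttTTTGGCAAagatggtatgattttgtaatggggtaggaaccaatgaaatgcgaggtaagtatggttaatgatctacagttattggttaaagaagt

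The match begins at position -135 relative to the annotated start in Fga, -80 in Fgb and -94 in Alb, and none was found in the Fgg window. Searched over 300 bases, from 250 before to 50 after the start, 3547 of 32851 RefSeq windows held the motif (10.8%), and 1114 of 10744 tested genes with a window did (10.4%). Cebpa and these 9 genes all had a window, and 3 of the 10 held the motif, the third being Serpinc1 with its match at position 4. Of the 12 higher genes, 6 had a window and 1, Psmb5, held it. A match is a description of letters and shows no binding.

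Fga was at 979, 1249 and 839 CPM in siHnf4a and 464, 533 and 364 CPM in the double knockdown. Fgb, the most abundant of the 3, was at 1598, 2028 and 1725 CPM and then 812, 1059 and 978 CPM. Fgg was at 443, 435 and 224 CPM and then 221, 146 and 64.3 CPM. For each chain all double knockdown libraries lay below all siHnf4a libraries, and mouse 3 had the lowest Fgg in both groups. The log2 fold changes were -1.17 ± 0.17, -0.92 ± 0.16 and -1.48 ± 0.24. In DESeq2 their adjusted p was 0.00200, 2.03e-06 and 0.00159. In siHnf4a the chains were above siCon, with log2 fold changes of 0.97, 0.96 and 0.85 (edgeR adjusted p = 0.00175, 0.00122 and 0.0186). The siHnf4a libraries serve in both of these comparisons, with opposite sign, so the values stand side by side only.

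A pair of thrombin inhibitors stood beside fibrinogen. Serpinc1, the gene of antithrombin, was at 62.4, 57.3 and 34.4 CPM in siHnf4a and 44.3, 30.8 and 23.1 CPM in the double knockdown (log2 fold change -0.66 ± 0.10). Serpind1, the gene of heparin cofactor II, was at 32.3, 47.4 and 59.6 CPM and then 21.6, 31.9 and 48.2 CPM (-0.48 ± 0.08). Both were lower in each of 3 mice, but the mice differed in level, in opposite orders for the 2 genes, so the groups overlapped. DESeq2, which also had mouse as a term, called both (adjusted p = 0.000225 and 0.00275).

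Amino acid metabolism was represented by Bhmt, Csad and Cps1. Bhmt, which remakes methionine from homocysteine with betaine, was at 219.5, 606 and 261 CPM in siHnf4a and 114, 271 and 76.3 CPM in the double knockdown. The log2 fold change was -1.31 ± 0.19 and each mouse was lower, although the double knockdown of mouse 2 exceeded siHnf4a of mouse 1 and mouse 3. Csad, which makes the taurine precursor hypotaurine, was at 21.1, 23.4 and 14.0 CPM and then 11.3, 11.2 and 6.92 CPM, without overlap (-0.99 ± 0.16). Cps1, the entry enzyme of the urea cycle and the hepatocyte marker with the smallest p, was at 482, 767 and 248 CPM and then 233, 254 and 73.5 CPM (-1.49 ± 0.26, DESeq2 adjusted p = 0.00501). Mouse 2 had the highest Bhmt and Cps1 in both groups.

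Among lipid genes, Apoa1, the main apolipoprotein of high-density lipoprotein, was at 646, 677 and 357 CPM in siHnf4a and 351, 224 and 191 CPM in the double knockdown. All 3 double knockdown libraries lay below all 3 siHnf4a libraries (-1.14 ± 0.20; adjusted p = 0.135 in edgeR and 0.0197 in DESeq2). Hadha, a subunit of the mitochondrial enzyme of fatty acid oxidation and the most abundant member of that list, had a log2 fold change of -0.29, and each mouse was lower.

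Nr1h4, which encodes the bile acid receptor FXR, had the smallest p in the list of liver transcription factors. It was at 44.4, 45.7 and 26.9 CPM in siHnf4a and 30.7, 23.5 and 16.0 CPM in the double knockdown (-0.75 ± 0.12, DESeq2 adjusted p = 0.000298). The groups overlapped only where siHnf4a of mouse 3 lay below the double knockdown of mouse 1. Klhl25, an adaptor of a ubiquitin ligase, showed the smallest but most even difference of these 9 genes, from 65.2, 58.9 and 49.6 to 51.1, 46.6 and 38.3 CPM (-0.35 ± 0.06). The 3 mice stood in the same order in both groups.

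Among genes that were higher with both siRNAs, Gm20431 had the smallest p. It went from 7.12, 5.68 and 7.85 CPM in siHnf4a to 17.7, 17.0 and 25.0 CPM in the double knockdown without overlap (1.51 ± 0.24, edgeR adjusted p = 0.118, DESeq2 adjusted p = 1.74e-06). Scamp5, a membrane protein of secretory vesicles, went from 32.5, 26.9 and 27.1 to 42.8, 36.2 and 34.0 CPM (0.39 ± 0.07). Fam129a went from 19.9, 9.95 and 6.17 to 33.9, 15.5 and 11.9 CPM (0.80 ± 0.19). Scamp5 and Fam129a were also called by DESeq2 (adjusted p = 0.0169 and 0.0217), and in siHnf4a all 3 were below siCon, at -1.08, -0.55 and -0.69 (edgeR adjusted p = 0.00740, 0.000253 and 0.0186). These comparisons share the siHnf4a libraries, with opposite sign, so the opposite directions are no finding. The other 9 had log2 fold changes from 0.24 for Psmb5, a catalytic subunit of the proteasome, to 0.59 for Cebpd. They also included Ddit3, the stress-induced factor CHOP (0.38 ± 0.08), Fkbp11, a prolyl isomerase of the endoplasmic reticulum (0.48 ± 0.11), Aprt, an enzyme of adenine salvage (0.33 ± 0.07), Rad9a of the DNA damage checkpoint (0.34 ± 0.07), the receptor tyrosine kinase Tyro3 (0.53 ± 0.13), Uap1l1 (0.30 ± 0.07) and the pseudogene Gm7993 (0.54 ± 0.10).

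**Figure D3:**
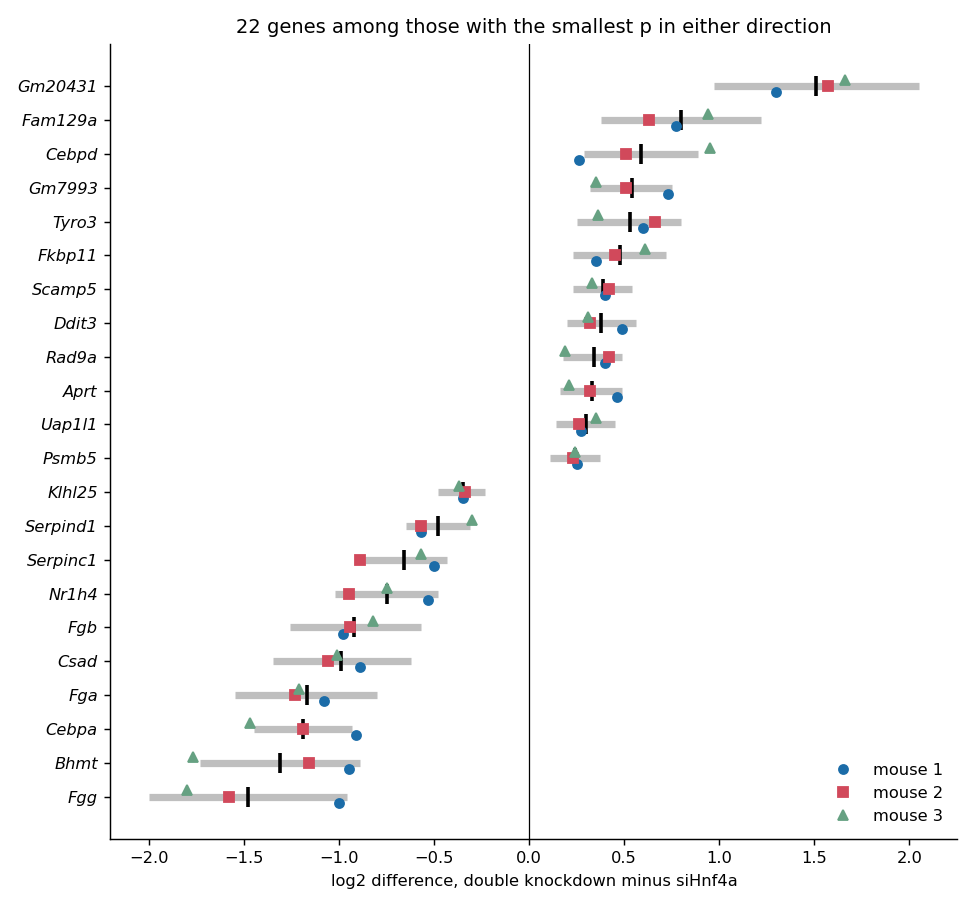
Log2 difference between double knockdown and siHnf4a (horizontal axis) for 22 genes among those with the smallest p in either direction; black ticks are fitted values, grey bars 95% intervals, and symbols the difference in each mouse. Fitted values run from -1.48 for Fgg to 1.51 for Gm20431. A shared sign in all 3 mice was a condition for choosing these genes and is no finding.

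The C/EBP family list held 6 tested genes, Cebpa included, while Cebpe was not tested. Cebpz was counted in this list for its name and not as a basic leucine zipper protein. None of the other 5 had a log2 fold change under -0.03. Cebpd, induced in the acute phase response, was at 69.2, 67.1 and 69.8 CPM in siHnf4a and 83.1, 95.6 and 135 CPM in the double knockdown. All 3 double knockdown libraries were above siHnf4a (0.59 ± 0.14; adjusted p = 0.260 in edgeR, 0.0126 in DESeq2 and 0.000208 without the filter). Cebpb, the most abundant member, had a log2 fold change of 0.20 ± 0.09 (95% interval 0.01 to 0.39). Cebpg and Cebpz were at -0.03 ± 0.08 (-0.21 to 0.15) and -0.03 ± 0.10 (-0.26 to 0.20). Without Hnf4a siRNA, Cebpa siRNA gave Cebpd 0.75 ± 0.13 and Ddit3 0.56 ± 0.08, both past the threshold in edgeR (adjusted p = 0.00466 and 0.00182).

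Gene lists for liver functions were described by counts and medians. Over 29 lists 820 distinct tested genes were covered, of which 190 had an unadjusted p under 0.05 with a negative difference and 25 with a positive one, beside 4.78% and 2.83% of all tested genes. Of the listed symbols, 105 stood in more than 1 list. Only Cebpa passed adjustment with 12 libraries, so the list counts below use the unadjusted p and name no gene as changed.

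Secreted proteins were covered by 5 lists, read beside the 4.78% of all tested genes that were lower at an unadjusted p under 0.05. For coagulation and fibrinolysis 18 of 29 genes were lower at this p, with a median log2 fold change of -0.60. Besides fibrinogen and the thrombin inhibitors they included F2, the precursor of thrombin (-0.63), Plg, the precursor of plasmin (-0.91), F11 (-0.69), Proc, the anticoagulant protein C (-0.46), and the kininogen genes Kng1 (-0.56) and Kng2 (-0.50), near copies whose reads may be shared between them. Of plasma carriers and protease inhibitors 17 of 33 were lower, with a median of -0.40, of complement genes 12 of 25 (-0.39), of apolipoproteins and lipoprotein assembly 11 of 26 (-0.39) and of acute phase genes 8 of 25 (-0.38). The 3 fibrinogen genes are members of both the coagulation and the acute phase lists. For Trf, the iron carrier transferrin, the value was -0.14 ± 0.14 (95% interval -0.45 to 0.18).

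Bile acid handling and detoxification were covered by 3 lists, read beside 4.78% lower and 2.83% higher among all tested genes. Of 27 bile acid genes 16 were lower at unadjusted p under 0.05, with a median of -0.68. They included the uptake carriers Slc10a1 (-1.90) and Slco1b2 (-2.09), the export pump Abcb11 (-1.02) and Akr1d1, a reductase of bile acid precursors (-2.18). These 4 were at low levels, from 2.30 to 4.73 CPM on average, while Scp2, a lipid transfer protein of peroxisomes (-0.63), was at 145 CPM. Of 53 cytochromes P450 and other phase I enzymes 26 were lower, with a median of -0.49 and Adh1, the main alcohol dehydrogenase of liver, at 245 CPM on average (-0.73). Cyp2e1, with the smallest p of that list, was at only 3.02, 1.28 and 0.452 CPM in siHnf4a and 0.796, 0.303 and 0.172 CPM in the double knockdown. Conjugation enzymes had 8 lower and 3 higher of 40, with a median of -0.15.

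Intermediary metabolism was covered by 4 lists, read beside the 4.78% of all tested genes that were lower at an unadjusted p under 0.05. Lower at this p were 21 of 53 genes of the urea cycle and amino acid catabolism (median -0.28), 16 of 39 of gluconeogenesis, glycolysis and glycogen (-0.30) and 15 of 35 of fatty acid oxidation and ketogenesis (-0.24). Arg1, the last enzyme of the urea cycle, was at -1.73 and the glucose carrier Slc2a2 at -1.54. Ass1, another urea cycle enzyme and the most abundant of its list, was at -0.02 ± 0.13 (95% interval -0.31 to 0.27). For lipogenesis and cholesterol synthesis 2 of 41 were lower (4.88%), near the share of all tested genes, and the median was 0.00. Acaca, the gate enzyme of fatty acid synthesis, had the smallest p of that list, at -0.32.

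Genes listed as dependent on either factor were counted too, in lists chosen with earlier results of these data known. The shares of all tested genes were again 4.78% lower and 2.83% higher. Ttr, F9 and Otc stand in both lists, and Ttr and F9 count among the lower genes of each. Of 24 genes listed as dependent on C/EBPα 17 were lower at unadjusted p under 0.05 and 0 higher (median -0.64), and of 28 listed as dependent on HNF4α 17 were lower and 0 higher (median -0.56). Of 41 liver transcription factors 7 were lower and 1, Tef, higher (median -0.10). The lower ones included Creb3l3 (-0.82), Nr5a2 (-0.38), Nr1i2, the xenobiotic receptor PXR (-0.58), Onecut1 (-0.88), Nr1h4 and Hnf4a. The 8 hepatocyte markers had a median of -0.61.

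Stress, proliferation and inflammatory lists each held at most 1 lower gene at an unadjusted p under 0.05. Of all tested genes, 4.78% were lower and 2.83% higher at that p, so counts of 0 to 2 in lists of this size are near these shares. Of 37 chaperone and stress genes of the endoplasmic reticulum 0 were lower and 7 higher, with a median of 0.08, and the values of Pdia4 (0.22), Creld2 (0.22) and Herpud1 (0.27) were small. Of 44 cell cycle genes 0 were lower and 2 higher (median 0.13), Mcm7 of the replicative helicase at 0.19 ± 0.07 having the smallest p. Of 33 NRF2 and redox genes 1 was lower, the metallothionein Mt2 at -0.35 ± 0.13, and 0 higher (median 0.09). Of 41 interferon genes 1 was lower and 1 higher, and of 37 genes of NF-kB and chemokines 0 were lower and 1, Cxcl10, higher.

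**Figure D4:**
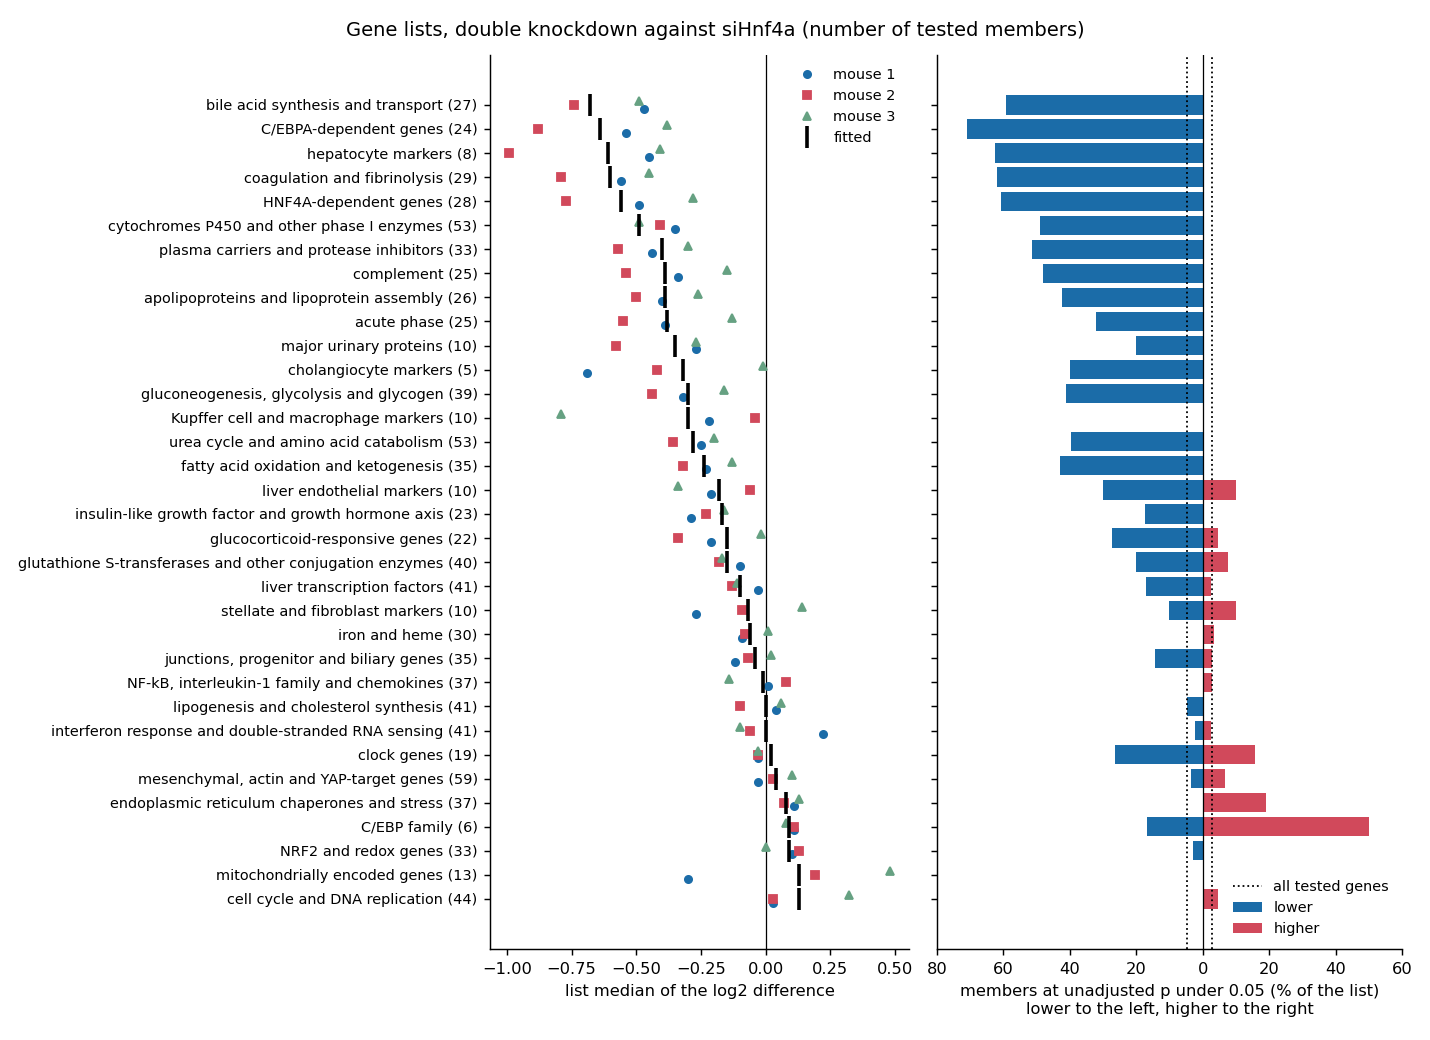
Left, median log2 difference of each gene list between double knockdown and siHnf4a, in each mouse (symbols) and as fitted (black ticks); right, the percent of tested members at an unadjusted p under 0.05, lower to the left and higher to the right, with dotted lines at 4.78% and 2.83% for all tested genes. Bile acid, C/EBPα-dependent, hepatocyte marker and coagulation lists lie at the top with medians from -0.68 to -0.60, and mouse 2 is the most negative for each of these 4.

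Markers of other liver cells were read beside these lists. At an unadjusted p under 0.05, 2 of the 5 tested cholangiocyte markers were lower, Sox9 (-0.58) and Spp1 (-0.33). Of 10 endothelial markers 3 were lower and 1 higher, beside 4.78% and 2.83% of all tested genes. By sign alone, 5 of 5 cholangiocyte and 8 of 10 endothelial markers had a negative fitted value. So did 10 of 10 tested Kupffer cell and macrophage markers and 6 of 10 stellate and fibroblast markers, beside 48.3% of all tested genes. The hepatocyte marker sum was lower in the double knockdown of all 3 mice, by the smallest amount in mouse 3. The part of hepatocyte content or RNA quality in the lower hepatocyte lists was not tested.

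Cebpa siRNA was also given without Hnf4a siRNA, in 6 other libraries of the same mice. The settings differed in how far Cebpa itself fell, with log2 fold changes of -2.69 without and -1.19 with Hnf4a siRNA. The part of this weaker fall in the differences between the responses below was not tested. Against siCon, siCebpa had 1318 genes higher (8.73%) and 1224 lower (8.11%) in edgeR with mouse as a term. The 1318 higher genes had a median of 0.39 log2 units in siCebpa and 0.04 on top of Hnf4a siRNA, where 923 of them (70.0%) had the same sign and 102 an unadjusted p under 0.05 in the same direction. The 1224 lower genes had medians of -0.59 and -0.02, with 678 (55.4%) of the same sign and 131 at that p. Both sets were picked by their siCebpa result, which enlarges their siCebpa medians. The gap between the medians of the settings is therefore in part set by this choice. Of all tested genes, 48.3% had a negative fitted value on adding Cebpa siRNA, and 2.83% and 4.78% were higher and lower at that p. Over the genes of at least 10 CPM the fitted values of both responses had a Pearson r of 0.32 and a Spearman rho of 0.21, given as a description.

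The difference between these responses was tested by the interaction contrast. In edgeR 300 genes had a higher response with Hnf4a siRNA than without (1.99%) and 276 a lower one (1.83%). These counts were far smaller without mouse 2 (0 and 4) and mouse 3 (10 and 13), and came to 152 and 108 without mouse 1. Without the mouse term 8 and 5 genes passed. Leaving out single libraries gave 53 to 414 and 50 to 456.

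The 4 genes with the smallest p in each direction had a clear response in siCebpa and one closer to 0 on top of Hnf4a siRNA. Git1, an adaptor of cell adhesion signalling, was at 118, 156 and 142 CPM in siCon and 50.9, 59.3 and 52.3 CPM in siCebpa, but at 102, 107 and 128 CPM in siHnf4a and 112, 113 and 117 CPM in the double knockdown. Its log2 fold changes were -1.35 ± 0.09 and 0.02 ± 0.09 (difference 1.37 ± 0.13, edgeR adjusted p = 0.00129). Cdc40, a splicing factor, had -1.55 and -0.06, Nup205, a component of the nuclear pore, -1.05 and -0.02, and 2310022B05Rik -1.89 and -0.39. For Git1, Cdc40 and Nup205 the siHnf4a and double knockdown libraries overlapped.

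In the opposite direction stood Itgb6, an integrin subunit of epithelial cells. It was at 1.55, 5.97 and 7.36 CPM in siCon and 9.16, 48.7 and 59.4 CPM in siCebpa, against 7.12, 41.3 and 50.7 CPM in siHnf4a and 10.1, 47.2 and 63.6 CPM in the double knockdown. Its log2 fold changes were 2.93 ± 0.11 without and 0.32 ± 0.09 with Hnf4a siRNA, and siHnf4a against siCon gave 2.66 (edgeR adjusted p = 2.25e-07). Mouse 1 was the lowest in all 4 groups. The glutathione S-transferase Gsta1 had 2.05 and 0.24, and its relatives Gm10639 and Gm3776 had 2.12 and 0.16, and 1.78 and 0.18. Near-identical members of this family share reads, so how their counts divide among the 3 is uncertain. Without mouse 2 the difference no longer passed in edgeR for Cebpa, Git1, 2310022B05Rik, Cdc40, Nup205 and Gm3776 (adjusted p from 0.0732 to 0.173). Without the mouse term it did not pass for Itgb6, Gm10639, Gsta1 and Gm3776 (adjusted p from 0.249 to 0.518), with values from -2.70 to -1.64.

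The lists were counted in the same comparison, beside 8.73% of all tested genes higher and 8.11% lower in siCebpa, and 1.99% with a higher and 1.83% with a lower response with Hnf4a siRNA. Of 33 NRF2 and redox genes, 23 were higher and 2 lower in siCebpa against siCon, and 11 had a lower response with Hnf4a siRNA. For 37 endoplasmic reticulum genes these counts were 17 higher, 0 lower and 9 with a lower response, for 40 conjugation enzymes 15 higher, 2 lower and 10, and for 53 phase I enzymes 13 higher, 4 lower and 11. Of 44 cell cycle genes 26 were lower and 1 higher in siCebpa, with a median of -0.59, against a median of 0.13 on top of Hnf4a siRNA, and 14 had a higher response with it. Hspa5, the main chaperone of the endoplasmic reticulum, had log2 fold changes of 0.62 ± 0.07 and 0.15 ± 0.07 (difference -0.47 ± 0.10, edgeR adjusted p = 0.0309). These genes were already at other levels in siHnf4a, where medians against siCon were 0.58 for NRF2 and redox genes, 0.29 for endoplasmic reticulum genes and -0.83 for cell cycle genes. These medians share the siCon and siHnf4a libraries with the responses, so they stand side by side only.

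Beside the 1.99% and 1.83% of all tested genes whose response differed, the counts were also taken for hepatocyte lists. Of the C/EBPα-dependent list 5 of 24 genes were lower in siCebpa and 1 had a lower response with Hnf4a siRNA, and of coagulation genes 9 of 29 were lower in siCebpa, with 1 response higher and 1 lower. Bhmt had log2 fold changes of -1.93 ± 0.20 without and -1.31 ± 0.19 with Hnf4a siRNA (difference 0.62 ± 0.27, adjusted p = 0.242 in edgeR), and Cps1 -1.17 ± 0.26 and -1.49 ± 0.26 (difference -0.32 ± 0.36, adjusted p = 0.681). For Apoa1 the values were 0.03 ± 0.20 and -1.14 ± 0.20, and their difference of -1.17 ± 0.28 passed (adjusted p = 0.0475 in edgeR). A difference that misses the threshold does not show that the responses were alike.

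**Figure D5:**
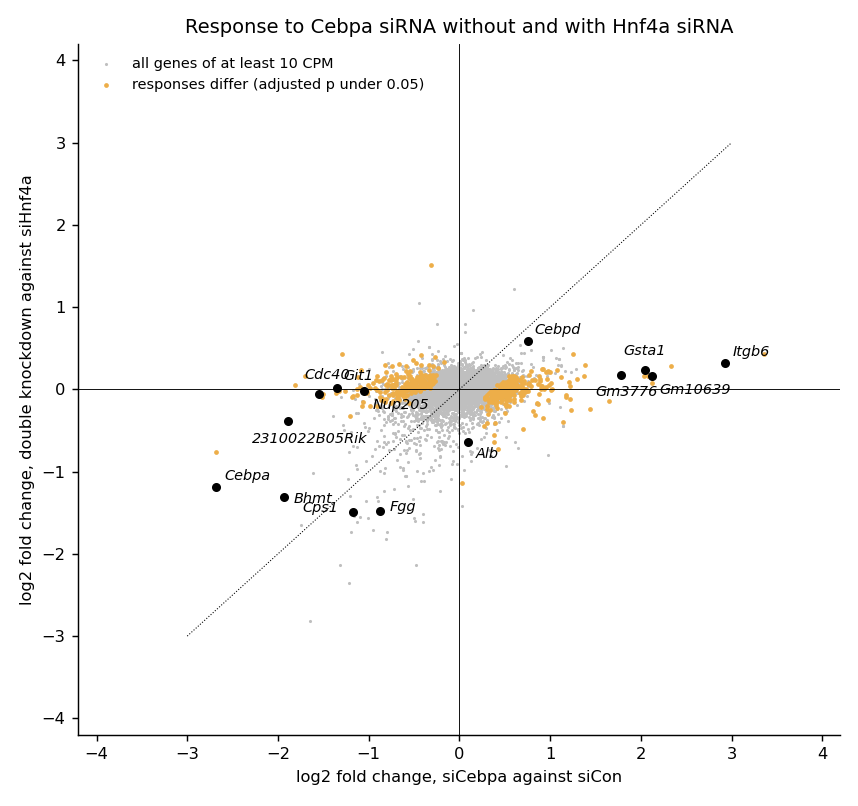
Log2 fold change on Cebpa siRNA without Hnf4a siRNA (horizontal, siCebpa against siCon) and with it (vertical, double knockdown against siHnf4a), 1 point per tested gene of at least 10 CPM on average; orange marks genes whose responses differ in edgeR and the dotted line is equality. Itgb6 (2.93 and 0.32) and Git1 (-1.35 and 0.02) lie near the horizontal axis, Bhmt (-1.93 and -1.31) and Cps1 (-1.17 and -1.49) near the line, and 1 gene, Rpl10a-ps1, is outside the axes.

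Several genes described here overlap a gene on the opposite strand, and the strand setting of the counting is not given in the sources used here, so reads of both could be joined. This holds for Cebpa (Gm45091), Hnf4a (Hnf4aos), Serpinc1 (Zbtb37), Serpind1 (Pi4ka), Csad (Zfp740), Bhmt (Gm15622), Fgg (Gm30097), Cebpd (Spidr), Ddit3 (Mars), Rad9a (Ppp1ca) and Aprt (Gm20388). It also holds for Cebpb (Tmem189), Cebpg (Gm45095), Cebpz (Cebpzos), Hadha (Garem2) and Acaca (Gm11437). Further cases are Mcm7 (Cops6), Mt2 (Gm45774), Cxcl10 (Art3), Npas2 (Gm20428) and Cd3e (Gm48719). Other list members were not checked for such overlap.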

How the data were processed

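RNA was sequenced from 12 libraries of primary mouse hepatocytes, 3 per group. Per the labels' protocols, total RNA was extracted with TRIzol and libraries followed a BGISEQ-500 protocol. The authors deposited expected counts per gene (estimated, partly fractional, not normalised) and TPM values, made with Trim Galore 0.6.4 and kallisto 0.4.6 on GRCm38.p6 per the submitters' processing notes. The sources used here do not give the annotation, strand setting or filters. Of 55385 identifiers 55144 matched GENCODE M21 symbols (54487 with their version).

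After rounding, the counts of all genes were modelled with edgeR 4.0.16 (R 4.3.3): filterByExpr by group (at least 0.42 CPM), TMM scaling, and a quasi-likelihood fit of all 12 libraries with a mean per group and a term per mouse (6 residual degrees of freedom). Tests were two-sided contrasts, adjusted by Benjamini-Hochberg over 15090 genes at 0.05. The sign ± precedes an SE for log2 values and an SD for CPM. Wherever "fell", "called" or "passed" is used, it refers to an adjusted p under 0.05.

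Mouse numbers come from the titles, and the series' design text names 3 mice. The samples were treated as paired on these grounds. Residuals of same-mouse libraries had r between 0.137 and 0.847 (18 pairs), with no pairs of different mice set beside them. Separate cultures are not stated, and p-values measure the spread between these libraries. Alternatives were no mouse term, DESeq2 1.42.0, RLE factors, 2 other filters, only the 6 compared libraries with and without mouse, limma 3.58.1 (trend) on log2(TPM + 1) where 3 libraries reached 1 TPM, and leaving out each library. Leaving out all libraries of a mouse was added after seeing the data. The fit was tested on simulated data.

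The comparison, its gene lists and alternatives were chosen with earlier results of these data known. Genes described individually were Cebpa, Hnf4a and Alb, up to 12 per direction past the threshold or else with the smallest p (at least 10 CPM, 1 sign in 3 mice), 4 per direction for the interaction, and, per list, the most abundant member and the one with the smallest p. Other list members given with a value were picked after their values were seen. Some genes that this rule names are not reported here. The list symbols Hjv and Bmal1 were not found. Figures used Python with matplotlib.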

Additional observations from a re-analysis of the deposited data

Results flagged for a closer look

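Genes are given here because the response to Cebpa siRNA differed with and without Hnf4a siRNA by the interaction contrast itself (edgeR, Benjamini-Hochberg adjusted p from 2.98e-05 to 0.0475). Groups held 3 libraries, so single libraries were not screened as outliers. The difference was positive, meaning a higher response with Hnf4a siRNA, for Cebpa (1.49 log2 units), Gm20431 (1.82), Rad9a (0.50), Git1 (1.37), 2310022B05Rik (1.51), Cdc40 (1.49), Nup205 (1.03) and Spp1 (0.88), the gene of osteopontin. It was negative for Itgb6 (-2.61), Gm10639 (-1.96), Gsta1 (-1.81), Gm3776 (-1.60), Apoa1 (-1.17), Cyp2e1 (-2.15), Gstp1 (-0.64) and Hspa5 (-0.47).

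Cebpa was reduced to 94.2 CPM in the double knockdown and to 33.7, 30.3 and 26.1 CPM in siCebpa, and whether the siRNA amounts were equal is not given in the labels. Gm20431 had log2 fold changes of -0.31 without and 1.51 with Hnf4a siRNA, and Rad9a -0.17 and 0.34. Spp1 had -1.21 and -0.33, and Gstp1, the most abundant conjugation enzyme of its list, 0.68 and 0.04. Cyp2e1 had 0.28 and -1.87 but averaged 1.58 CPM in siHnf4a and 0.423 CPM in the double knockdown, so its value rests on few counts.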

How the results depend on the processing

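For genes higher in the double knockdown, the count of 0 became 43 without a low-count filter, 15 with the 6 compared libraries and the replicate block, and 22 in DESeq2. For genes lower, the count of 1 became 307, 158 and 74 in these fits, and 0 with 6 libraries and no replicate block and on log2 TPM. With 12 libraries and no replicate block it was 0 and 1 again. Leaving out 1 library gave 0 to 0 and 0 to 3, and leaving out 1 mouse 0 to 5 and 0 to 15. The single call without mouse 2 was Gm20412, at 9.93 CPM. Interaction counts of 300 higher and 276 lower became 8 and 5 with no replicate block, 568 and 461 without the filter and 471 and 442 in DESeq2, and 58 lower on log2 TPM. They ran from 53 to 414 and 50 to 456 without 1 library and 0 to 152 and 4 to 108 without 1 mouse. The cause of these shifts was not tested.

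Cebpa kept its direction but missed the threshold with 6 libraries and no replicate block (-1.19, adjusted p = 0.218 in edgeR) and on log2 TPM (-1.18, adjusted p = 0.122 in limma). It ran from -1.32 to -1.07 without 1 library and -1.34 to -1.06 without 1 mouse. Hnf4a passed at -0.59 without the filter and with 6 libraries and the replicate block, and ran from -0.82 to -0.45 and -0.66 to -0.48. Alb passed at -0.64 without the filter and ran from -0.77 to -0.43 and -0.80 to -0.41. Signs turned for Cebpz (0.02, 0.03 and 0.05 without siHnf4a, double knockdown or all libraries of mouse 3, and 0.03 on log2 TPM) and Cebpg (0.00 without siHnf4a of mouse 2, 0.03 without the double knockdown of mouse 3). They also turned for mt-Nd4l (-0.01) and Cd3e (-0.04) without siHnf4a of mouse 3. Leaving out libraries moved these genes over -0.10 to 0.05, -0.08 to 0.03, -0.01 to 0.52 and -0.04 to 0.39. Of the other single-gene values, 747 stayed on their side of the threshold and 91 passed it newly. Many of these genes were chosen by small p or 1 sign in 3 mice, so their signs say nothing about stability. Of the single-gene differences between responses 220 stayed, 1 passed newly and 10 were lost, 6 without mouse 2 and 4 with no replicate block. Depth was not varied.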

Other observations

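Clock genes held members of both signs. Of 19 tested, 5 were lower and 3 higher at an unadjusted p under 0.05 in edgeR, beside 4.78% and 2.83% of all tested genes, while 0 passed adjustment there and in DESeq2. The lower ones were Npas2 (-0.52), Rora (-0.43), Hlf (-0.62), Arntl (-0.25) and Cry1 (-0.19), of which Npas2, Rora and Arntl encode activators of the clock. The higher ones were Per1 (0.35), Tef (0.22) and Cry2 (0.18). Npas2, a partner of BMAL1, was at 17.1, 17.0 and 15.2 CPM in siHnf4a and 12.3, 10.9 and 11.2 CPM in the double knockdown, without overlap, and the 6-library fit with mouse called it (edgeR adjusted p = 0.0495). All libraries were taken 48 h after siRNA, and the hour of day is not given in the labels.

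Mitochondrially encoded transcripts did not share a direction over mice. Their list median was -0.30, 0.19 and 0.48 log2 units in mouse 1, 2 and 3, and 0 of 13 reached an unadjusted p under 0.05. Cell cycle genes had medians of 0.03, 0.03 and 0.32, with a fitted median of 0.13. Kupffer cell and macrophage markers had medians of -0.22, -0.04 and -0.79.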
